A study of Rattus norvegicus with 372 samples.

Results

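The pyruvate dehydrogenase kinases Pdk1, Pdk2, Pdk3 and Pdk4, the phosphatases Pdp1 and Pdp2, the pyruvate carrier subunits Mpc1 and Mpc2 and the complex subunit Pdha1 were followed in primary rat hepatocytes across 28 chemical treatments. These 9 genes were taken by name from 20946 gene symbols of the WT assay. For 8 of them a probe column was found, with 1 probe each, and all 8 were among the 10191 genes that passed the filter on low counts. Pdha1 was not analysed here. Pdk4 passed with a mean of 61.9 counts over all WT wells through the treatments in which it was high, since no vehicle well held more than 2 counts.

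Sandwich cultures of hepatocytes from male Wistar rats, held between layers of collagen, were exposed for 24 h to 14 chemicals, each at a high and a low concentration. TempO-Seq counts ligated pairs of detector oligos, and lysate of the same wells was run with the whole transcriptome (WT) probes and with the smaller S1500+ surrogate (ST) set. Each batch was the liver of 1 rat, with 3 wells per treatment. Biological replication thus rests on the 2 batches alone, and a p-value within a batch covers the spread between wells of one animal. Each treatment was compared with vehicle (0.5% DMSO) of its batch, in 3 wells of batch 1 and 6 wells of batch 2, and untreated medium was run in as many wells. All groups shared a medium with insulin, dexamethasone and EGF, and all but the medium wells held DMSO. The pairs of concentrations were 400 and 10000 µM acetaminophen, caffeine, isoniazid and valproic acid, 18 and 450 µM chloramphenicol, 16 and 400 µM diclofenac, and 0.08 and 2 µM doxorubicin. The others were 12 and 300 µM indomethacin, 0.6 and 15 µM ketoconazole, 80 and 2000 µM naproxen, 160 and 4000 µM ranitidine, 2.4 and 60 µM simvastatin, 4 and 100 µM sulfasalazine, and 8 and 200 µM WY14643.

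Pyruvate enters mitochondria through a carrier built of the Mpc1 and Mpc2 proteins, and the pyruvate dehydrogenase complex then turns it into acetyl-CoA. The kinases switch the complex off by phosphorylating its E1 alpha subunit, the product of Pdha1, and the phosphatases switch it on again. In liver, Pdk4 is the kinase gene best known for its rise in fasting and under ligands of PPAR alpha, the nuclear receptor that controls fatty acid oxidation and that WY14643 activates.

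WT libraries held 2.71 to 8.95 M reads (median 6.21 M) in the 90 wells of batch 1 and 2.29 to 8.98 M (median 7.22 M) in the 96 wells of batch 2. Levels are given as counts per M reads of a well (CPM) with the SD between wells, and L2FC is the log2 fold change of the edgeR quasi-likelihood fit after TMM scaling, so it can differ from the ratio of CPM values. Probes differ in efficiency, so levels were not compared between genes. A member was called where its Benjamini-Hochberg adjusted p over all 10191 genes was under 0.05 in both batches with the same sign. The hepatocyte markers Alb, Apoa1, Ttr, Hnf4a, Tf and Serpina1 summed to 36744 to 43999 CPM in vehicle wells. The endothelial list stayed between 1.67 and 3.81 CPM there, while the cholangiocyte list, with Epcam at 37.7, Sox9 at 3.15, Krt19 at 0.301 and Krt7 at 0 CPM, summed to 33.1 to 49.0 CPM. On plates, chemicals were not shared out: in batch 1 the wells of acetaminophen, chloramphenicol, indomethacin, ketoconazole, sulfasalazine and WY14643 stood on a plate without vehicle wells, where plate and chemical cannot be told apart. Among the vehicle wells of batch 2, 3 on each plate, no member was called between plates (0 of 10191 genes called, a share of 0%). The largest member difference was 0.49 on the log2 scale, for Pdk3 (adjusted p 0.429, edgeR).

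The starts of the Pdk4 and Mpc2 genes are shown because these members had the largest changes. RefSeq promoter windows of the rat assembly GRCr8, of which the 250 bases before the annotated start were read, matched 6 of the 8 members, all but Pdp1 and Pdp2. Capitals mark a CCAAT box on either strand (read as ATTGG on the strand shown when it lies on the opposite one). The Pdk4 window is chr4:34568330-34568579 on the minus strand, with its box 153 bases before the start. The Mpc2 window is chr13:80261006-80261255 on the plus strand, with its box 108 bases before the start.
Pdk4: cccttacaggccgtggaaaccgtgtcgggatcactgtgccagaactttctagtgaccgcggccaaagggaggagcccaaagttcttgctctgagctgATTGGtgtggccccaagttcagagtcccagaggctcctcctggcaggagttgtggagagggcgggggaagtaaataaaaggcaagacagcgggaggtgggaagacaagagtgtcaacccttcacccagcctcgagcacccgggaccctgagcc
Mpc2: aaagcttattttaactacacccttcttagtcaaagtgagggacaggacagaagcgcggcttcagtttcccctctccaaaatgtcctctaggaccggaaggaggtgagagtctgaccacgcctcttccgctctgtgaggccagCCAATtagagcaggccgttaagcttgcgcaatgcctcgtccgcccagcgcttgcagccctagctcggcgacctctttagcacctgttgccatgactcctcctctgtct
CCAAT was found on either strand in 5 of the 6 member windows and in 34% of 33469 windows of all genes. GGGCGG, the GC box, was also found in 5 of 6, against 30.5% of all windows. The hexamer AGGTCA was found in 0 of 6 and in 14.1% of all windows, and its DR1 repeat, the form of the PPAR response element with 1 free base between the units, in 0 of 6 and 0.0508%. All were searched on both strands, and the repeat contains the hexamer. These are descriptions of letters in a short window.

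Of 224 pairs of a member and a treatment, 46 were called higher and 18 lower in both batches. The lower count was 11 without vehicle replicate 1 of batch 1, 10 without replicate 2 of every group and 40 with both batches in one fit. Over all genes tested, 8.13% of such pairs were called higher and 7.7% lower. Treatments share their vehicle wells, so the pairs are not independent. Counts were spread unevenly over the members. Pdp2 was higher in 13 treatments, Mpc2 in 12 and Pdk4 in 11, and 0.236%, 0.599% and 1.06% of all genes were higher in at least as many. Pdk1 was higher in 6 and lower in 2, Pdk2 higher in 2 and lower in 3, Pdk3 higher in 1 and lower in 7, Mpc1 lower in 5 and Pdp1 higher in 1. For the lower calls of Mpc1 and Pdk3, 18.1% and 10.1% of genes were lower in at least as many treatments. No pair was called in opposite directions in the batches. In 10 treatments no member was called.

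**Figure D1:**
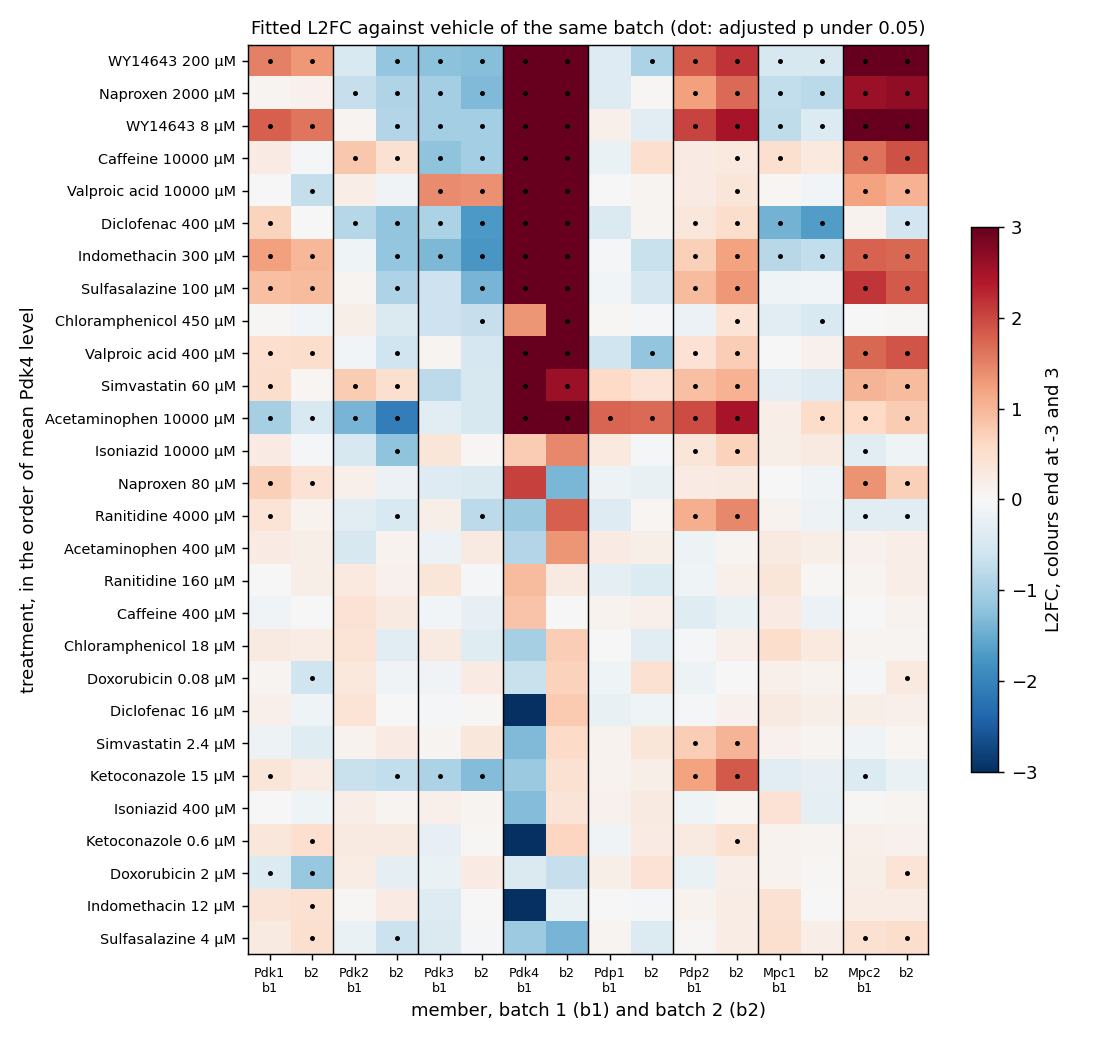
Fitted L2FC of the 8 members against vehicle in the 28 treatments, with a column for each batch and a dot where the adjusted p was under 0.05. Rows run by mean Pdk4 level, highest at the top, so the red Pdk4 cells of the upper rows follow from that order. The Pdp2 and Mpc2 columns are mostly red in the upper rows, and Pdk3 and Mpc1 are mostly blue there. The deep blue Pdk4 cells of batch 1 are groups with 0 counts, whose fitted value is no measure of size.

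Pdk4 was near the limit of detection in vehicle, at 0.159 ± 0.182 CPM in batch 1 (SD, n = 3) and 0.171 ± 0.146 CPM in batch 2 (SD, n = 6). The single vehicle wells held 1, 0 and 2 counts in batch 1 and 2, 2, 0, 2, 1 and 0 counts in batch 2. With 200 µM WY14643 the wells held 520, 432 and 389 counts in batch 1 and 568, 808 and 665 counts in batch 2. All 6 treated wells lay far above every vehicle well, and WY14643 at this concentration gave the highest Pdk4 level in both batches.

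These counts corresponded to 62.7 ± 3.33 and 83.5 ± 18.4 CPM (SD, n = 3 each). Because so few vehicle reads were counted, folds are given as ratios of pooled counts with an exact 95% interval, which covers counting error only. The ratio to vehicle was 406 (139 to 1971) in batch 1 and 474 (229 to 1179) in batch 2, with adjusted p values of 5.1e-27 and 1.57e-32 by edgeR. At 8 µM, the lower concentration, Pdk4 stood at 42.1 ± 7.42 and 77.0 ± 18.3 CPM (SD, n = 3 each), and the ratios were 277 (94.5 to 1348) and 440 (213 to 1096). Between the concentrations the wells overlapped in batch 2 but not in batch 1, and the direct comparison gave an L2FC of 0.52 ± 0.22 and 0.09 ± 0.28 (SE) with adjusted p of 0.242 and 0.906.

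Naproxen, an anti-inflammatory acid, raised Pdk4 at 2000 µM to 56.3 ± 15.8 and 68.1 ± 13.5 CPM (SD, n = 3 each). Its wells held 347, 289 and 476 counts in batch 1 and 454, 373 and 617 in batch 2, a range that overlapped that of WY14643. At 80 µM naproxen, batch 1 held 8, 3 and 4 counts and batch 2 held 1, 0 and 0, and Pdk4 was called in neither.

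Caffeine at 10000 µM gave 137, 193 and 99 Pdk4 counts in batch 1 and 617, 443 and 319 in batch 2. Those wells averaged 26.6 ± 9.45 and 58.8 ± 18.5 CPM (SD, n = 3 each), the fourth highest group of each batch. At 400 µM caffeine, 6 and 4 counts were found over the 3 wells of the batches, and the wells overlapped vehicle.

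Valproic acid, a short branched fatty acid used against epilepsy, raised Pdk4 at both concentrations. At 10000 µM the wells held 53, 49 and 30 counts in batch 1 and 39, 83 and 82 in batch 2, at 7.82 ± 0.484 and 9.12 ± 3.39 CPM (SD, n = 3 each). At 400 µM they held 12, 7 and 12 counts and 14, 10 and 11 counts, at 1.59 ± 0.553 and 1.68 ± 0.369 CPM (SD, n = 3 each). The wells of the 2 concentrations did not overlap. Ratios to vehicle were 50.7 (17.0 to 249) and 52.1 (24.8 to 131) at the high and 10.0 (3.13 to 51.3) and 9.53 (4.17 to 25.4) at the low concentration.

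The other treatments in which Pdk4 was called stood below naproxen and caffeine. Diclofenac at 400 µM stood at 3.69 ± 1.14 CPM in batch 1, between the concentrations of valproic acid, and at 10.7 ± 0.526 CPM in batch 2, where its wells overlapped those of 10000 µM valproic acid (SD, n = 3 each). The wells of the batches did not overlap, but the interaction of batch and treatment, tested for every member, was not called for it. Indomethacin at 300 µM (3.55 and 4.51 CPM) and sulfasalazine at 100 µM (2.70 and 4.21 CPM) followed, and their wells overlapped each other in both batches.

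Simvastatin at 60 µM (1.69 and 1.08 CPM) and acetaminophen at 10000 µM (1.12 and 1.35 CPM) had the lowest levels of the called treatments in batch 2, and in batch 1 400 µM valproic acid lay between them. Their wells held 5 to 12 counts and 2 to 21 counts. Both calls were lost when the second well of every group was left out, so that 9 treatments remained called. That for simvastatin was also lost without the third wells, and when batch 2 was compared with vehicle wells of the same plate. With chloramphenicol at 450 µM, Pdk4 was called in batch 2 alone, at 3.22 ± 1.47 CPM with 24, 35 and 14 counts, while batch 1 held 2, 3 and 2 counts. In the remaining 16 treatments the group means of Pdk4 lay between 0 and 0.610 CPM with single wells up to 1.00 CPM, and neighbouring groups overlapped there. Medium alone held 0 counts in the 3 wells of batch 1, a ratio of 0 to vehicle with an upper limit of 2.08, and 0 to 3 counts in the 6 wells of batch 2.

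**Figure D2:**
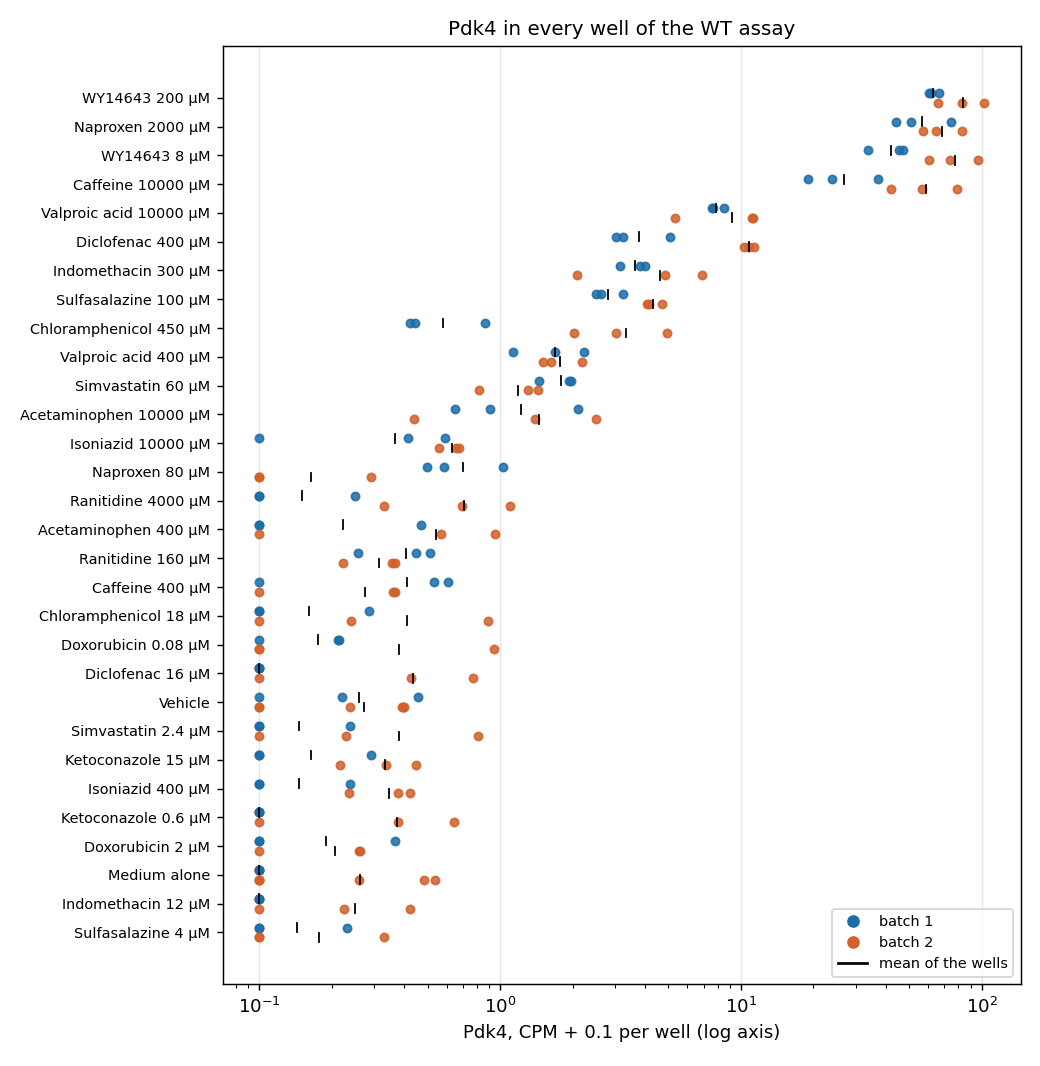
Pdk4 in every WT well on a log axis of CPM, with a small constant added so that wells at 0 can be drawn at the left edge. Points are wells, coloured by batch, and black bars are group means. WY14643 at both concentrations, 2000 µM naproxen and 10000 µM caffeine stand at 18.9 to 102 CPM, and most low concentrations stand with the vehicle wells.

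Mpc2, the carrier subunit, changed most after Pdk4 and started from a level at which counting error is small. Vehicle wells stood at 145 ± 5.76 CPM in batch 1 (SD, n = 3) and 140 ± 4.71 CPM in batch 2 (SD, n = 6), with single wells from 140 to 151 and from 132 to 145 CPM. With 200 µM WY14643 they stood at 1421, 1358 and 1515 CPM in batch 1 and 1435, 1478 and 1416 CPM in batch 2. The lowest treated well, at 1358 CPM, was far above the highest vehicle well, at 151 CPM.

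The L2FC was 3.63 ± 0.14 and 3.54 ± 0.08 (SE), with adjusted p of 2.2e-34 and 1.43e-51. At 8 µM WY14643 it was 3.59 ± 0.14 and 3.51 ± 0.08 (SE), and the concentrations differed by 0.04 ± 0.12 and 0.03 ± 0.09 (SE, adjusted p 0.947 and 0.898). No other group overlapped the wells of these concentrations. Naproxen at 2000 µM came next, with an L2FC of 2.59 and 2.66 and all 6 wells between 818 and 892 CPM. Sulfasalazine at 100 µM had an L2FC of 2.14 and 1.83, at 553 ± 38.7 and 477 ± 68.3 CPM (SD, n = 3 each).

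Valproic acid set the carrier apart from the kinase. At 400 µM, Mpc2 wells stood at 460, 473 and 456 CPM in batch 1 and 517, 466 and 515 CPM in batch 2, an L2FC of 1.71 and 1.89. At 10000 µM the level was lower, at 382 ± 24.7 and 349 ± 8.36 CPM (SD, n = 3 each), and the high concentration was below the low one by an L2FC of -0.50 and -0.85 (adjusted p 0.000637 and 1.89e-12). Over the same wells Pdk4 was higher at 10000 than at 400 µM, by 2.09 in both batches on the log2 scale. The difference between the genes was not itself tested.

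Among the other treatments, Mpc2 was called higher with 10000 µM caffeine, 300 µM indomethacin, 80 µM naproxen, 10000 µM acetaminophen, 60 µM simvastatin and 4 µM sulfasalazine. It was called lower with 4000 µM ranitidine, by an L2FC of -0.35 and -0.34 (103 ± 9.01 and 105 ± 11.5 CPM, SD, n = 3 each). The calls with ranitidine and 4 µM sulfasalazine were lost in part of the fits that left out wells. Acetaminophen, a small change of 0.60 and 0.75, was not called when library totals replaced TMM scaling.

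Mpc1, the partner subunit, was called higher in no treatment and lower in 5. In vehicle it stood at 42.7, 36.0 and 48.0 CPM in batch 1 and between 38.6 and 57.4 CPM in batch 2. Diclofenac at 400 µM gave 12.0, 15.6 and 20.9 CPM and 18.4, 15.1 and 16.3 CPM, below every vehicle well of either batch, with an L2FC of -1.43 ± 0.19 and -1.67 ± 0.19 (SE). Adjusted p values were 1.2e-09 and 4.25e-12.

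Mpc1 was also lower with 300 µM indomethacin (L2FC -0.84 and -0.73) and with 2000 µM naproxen (-0.74 and -0.81). With WY14643 the change was smaller, at -0.75 and -0.42 for 8 µM and -0.48 in both batches for 200 µM. The 8 µM wells of batch 2, at 39.1, 28.9 and 27.1 CPM, overlapped the vehicle wells. Both WY14643 calls were lost in several alternatives, among them the comparison with vehicle wells of the same plate, where the mean L2FC was -0.56 at 8 µM and -0.45 at 200 µM.

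In 4 treatments Mpc2 was called higher and Mpc1 lower, namely both concentrations of WY14643, 2000 µM naproxen and 300 µM indomethacin. Mpc1 was never called higher and Mpc2 was called lower with ranitidine alone, so the single counts leave little room for calls in one direction. With diclofenac, where Mpc1 fell most, Mpc2 was not called in both batches, and its L2FC differed between them by -0.67.

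**Figure D3:**
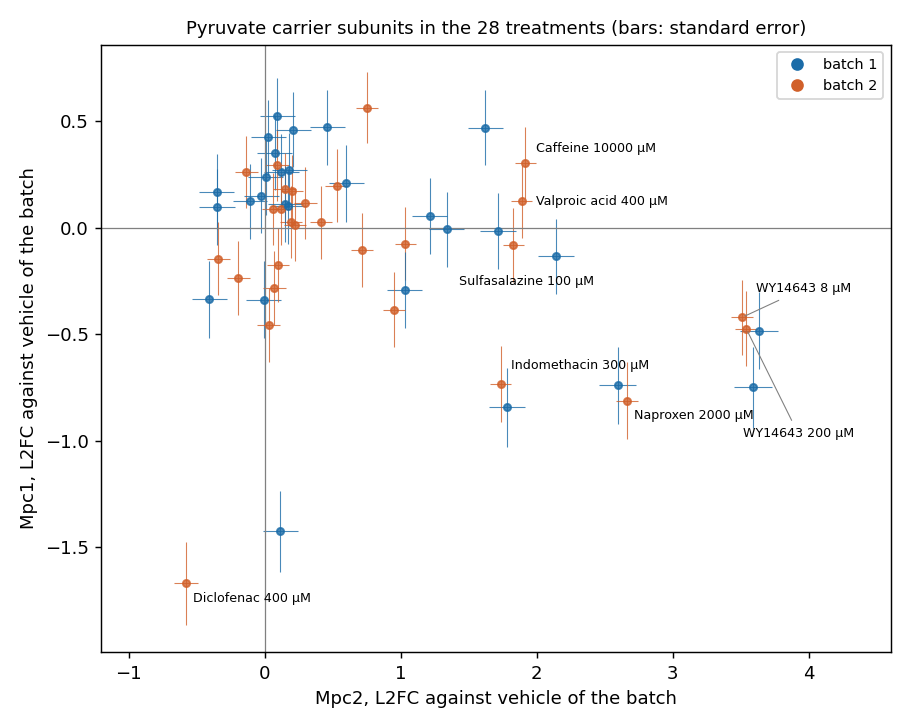
L2FC of Mpc1 against that of Mpc2 in each treatment and batch, with bars for the standard error. The WY14643, naproxen and indomethacin points lie at the lower right, with Mpc2 higher and Mpc1 lower, and diclofenac lies lowest on the Mpc1 axis, at -1.43 and -1.67.

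Pdk1, the kinase known as a target of the hypoxia factor HIF1, rose with WY14643 and fell with acetaminophen and doxorubicin. Vehicle wells stood at 92.6, 102 and 87.9 CPM in batch 1 and between 115 and 158 CPM in batch 2. With 8 µM WY14643 the wells stood at 229, 275 and 242 CPM and at 323, 404 and 372 CPM, above every vehicle well of their batch, and this was the highest group of both batches by WT. By ST, 400 µM diclofenac had the higher mean in batch 1, at 728 against 665 CPM, and the wells overlapped. The L2FC was 1.79 ± 0.13 and 1.59 ± 0.11 (SE), with adjusted p of 3.13e-20 and 1.93e-22.

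At 200 µM WY14643 the L2FC of Pdk1 was 1.51 and 1.30, and the direct comparison with 8 µM (-0.28 and -0.29, adjusted p 0.24 and 0.233) did not pass. Indomethacin at 300 µM (1.22 and 1.01) and sulfasalazine at 100 µM (0.90 and 0.95) came next. Pdk1 was also called higher with 80 µM naproxen and 400 µM valproic acid, and was not called at 2000 µM naproxen and 10000 µM valproic acid. The call with 80 µM naproxen was lost in 3 of 20 alternative fits, among them that with vehicle wells of the same plate, and the call with 400 µM valproic acid in 1, without replicate 3. Acetaminophen at 10000 µM took Pdk1 to 34.8 ± 2.48 and 75.9 ± 6.41 CPM (SD, n = 3 each), below all vehicle wells. With 2 µM doxorubicin it stood at 63.2 to 68.0 CPM in batch 1 and 61.5 to 70.7 CPM in batch 2, an L2FC of -0.42 and -1.14, and that call was lost without any one of the 3 well numbers.

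Pdk2, the kinase found in most tissues, was lower in 3 treatments and higher in 2. Vehicle wells stood at 7.50, 7.83 and 5.89 CPM in batch 1 and between 11.1 and 15.7 CPM in batch 2. Acetaminophen at 10000 µM gave 1.37, 2.00 and 2.42 CPM and 2.06, 3.08 and 1.46 CPM. Every treated well was below every vehicle well, and the L2FC was -1.39 ± 0.32 and -2.08 ± 0.22 (SE), with adjusted p of 0.000106 and 1.86e-13.

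Diclofenac at 400 µM (-0.86 and -1.18) and naproxen at 2000 µM (-0.70 and -0.91) were called lower as well, though the naproxen call was lost in 6 of 20 alternative fits, among them those without replicate 1, 2 or 3 of every group. Caffeine at 10000 µM (0.82 and 0.47) and simvastatin at 60 µM (0.77 and 0.48) were called higher, but both overlapped the vehicle wells in batch 2 and were lost under library totals. The caffeine call was also lost without replicate 2 and without replicate 3 of every group, and the simvastatin call in most fits that left out wells. Neither was called in both batches by the ST assay.

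Pdk3, a kinase with its highest levels outside the liver, was lower in 7 treatments and higher in 1. It stood at 7.99, 6.37 and 5.00 CPM in the vehicle wells of batch 1 and between 5.78 and 10.4 CPM in those of batch 2. With 10000 µM valproic acid it stood at 16.3, 21.1 and 22.2 CPM and at 25.9, 29.0 and 22.5 CPM. No well of any other group of the batch came as high, and the L2FC was 1.41 ± 0.25 and 1.38 ± 0.22 (SE), with adjusted p of 2.17e-06 and 9.32e-08. At 400 µM valproic acid, the Pdk3 wells overlapped vehicle (6.65 ± 2.52 and 5.52 ± 0.623 CPM, SD, n = 3 each).

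Indomethacin at 300 µM gave the lowest mean Pdk3 level, 2.11 ± 0.509 and 2.19 ± 0.808 CPM (SD, n = 3 each), with an L2FC of -1.34 and -1.76. Its wells overlapped those of the next group, 200 µM WY14643 in batch 1 and 400 µM diclofenac in batch 2. Diclofenac at 400 µM (-0.96 and -1.71), WY14643 at 200 µM (-1.24 and -1.28) and naproxen at 2000 µM (-1.03 and -1.32) followed, and caffeine at 10000 µM, 8 µM WY14643 and 15 µM ketoconazole made up the 7. At these levels a well held few reads. The calls with diclofenac, naproxen, ketoconazole and 8 µM WY14643 were lost without vehicle replicate 1 of batch 1 and in 2 or 3 of 20 alternative fits, and those with indomethacin, 200 µM WY14643 and caffeine in 0.

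Pdp2, the phosphatase that does not need calcium, was called higher in 13 treatments and lower in none. Its count beside the 12 of Mpc2 gave no firm order, as it was 10 against 11 without a filter on low counts and 11 each without replicate 2. In vehicle it stood at 39.4, 39.3 and 49.1 CPM in batch 1 and between 22.1 and 31.2 CPM in batch 2. With 8 µM WY14643 the wells stood at 122, 131 and 142 CPM and at 136, 128 and 134 CPM. The L2FC was 2.02 ± 0.11 and 2.46 ± 0.10 (SE), with adjusted p of 5.02e-25 and 2.25e-35.

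Acetaminophen at 10000 µM gave nearly the same Pdp2 level, 122 ± 9.90 and 113 ± 15.0 CPM (SD, n = 3 each), and its wells overlapped those of 8 µM WY14643 in both batches. WY14643 at 200 µM (L2FC 1.84 and 2.16), ketoconazole at 15 µM (1.20 and 1.83) and naproxen at 2000 µM (1.24 and 1.71) followed. The weaker Pdp2 calls with 10000 µM isoniazid, 400 µM diclofenac and 400 µM valproic acid were lost in 5, 4 and 3 of 20 alternative fits. Ketoconazole raised Pdp2 without a call for Pdk4, which held 1 and 6 counts over its 3 wells of the batches.

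Pdp1, the phosphatase activated by calcium, was called in 1 treatment. Acetaminophen at 10000 µM gave 10.4, 19.5 and 17.7 CPM and 16.8, 13.1 and 9.01 CPM. All were above the vehicle wells, which stood at 8.11, 5.46 and 5.89 CPM in batch 1 and between 3.56 and 6.89 CPM in batch 2. The L2FC was 1.74 ± 0.30 and 1.69 ± 0.26 (SE), with adjusted p of 6.26e-07 and 2.49e-08.

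**Figure D4:**
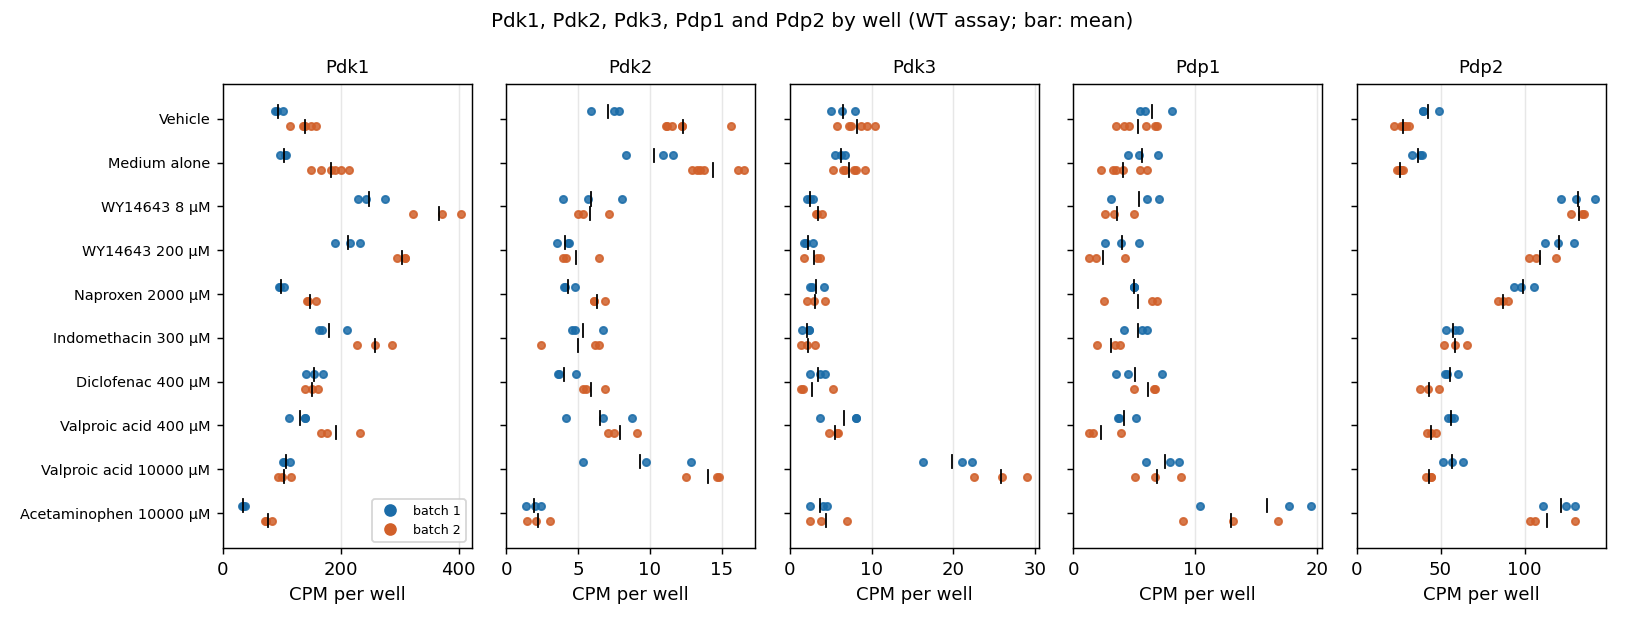
Pdk1, Pdk2, Pdk3, Pdp1 and Pdp2 in single WT wells in CPM, for vehicle, medium and 8 treatments, coloured by batch, with a bar at each group mean. Pdk3 stands highest with 10000 µM valproic acid, Pdp1 with 10000 µM acetaminophen and Pdk1 with 8 µM WY14643.

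Read by treatment, the members were called most often, 6 of 8, with both concentrations of WY14643, 2000 µM naproxen, 300 µM indomethacin and 10000 µM acetaminophen. The WY14643 pattern was Pdk1, Pdk4, Pdp2 and Mpc2 higher with Pdk3 and Mpc1 lower. Over all genes, 15.7% were higher and 14.2% lower at 8 µM, and 15.1% and 13.9% at 200 µM. The median L2FC of the members was 0.80 at 8 µM against -0.02 for all genes, and 0.46 against -0.01 at 200 µM. Indomethacin called the same 6 members in the same directions, beside 16% and 14.3% of all genes. In the other 9 treatments that raised Pdk4, the member median lay between -0.20 (diclofenac) and 0.56 (simvastatin), and that of all genes between -0.02 and 0.05.

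With 2000 µM naproxen, Pdk4, Pdp2 and Mpc2 were higher and Pdk2, Pdk3 and Mpc1 lower (14.9% and 14.3% of all genes). Diclofenac at 400 µM called 5 members, Pdk4 and Pdp2 higher and Pdk2, Pdk3 and Mpc1 lower (25.2% and 24.5%). Acetaminophen at 10000 µM had another pattern, with Pdk4, Pdp1, Pdp2 and Mpc2 higher and Pdk1 and Pdk2 lower. That treatment called 30.4% of all genes higher and 30.6% lower, so a count of 6 of 8 members is near the share of all genes. Sulfasalazine at 100 µM (7.59% and 5.27% of all genes) and 400 µM valproic acid (6.63% and 4.44%) each called Pdk1, Pdk4, Pdp2 and Mpc2 higher and none lower. With 60 µM simvastatin (4.54% and 3.2%), Pdk2, Pdk4, Pdp2 and Mpc2 were higher. Caffeine at 10000 µM (21.7% and 20.5%) called Mpc2, Pdk2 and Pdk4 higher and Pdk3 lower, and 10000 µM valproic acid (22% and 21%) called Mpc2, Pdk3 and Pdk4 higher. In the other 7 treatments with a call, 1 or 2 members were called. Those were Pdp2 higher and Pdk3 lower with 15 µM ketoconazole (12.1% and 13.4% of all genes), Pdp2 higher and Mpc2 lower with 4000 µM ranitidine (20.6% and 18.7%), and Mpc2 and Pdk1 higher with 80 µM naproxen (2.88% and 1.09%). Pdp2 alone was higher with 10000 µM isoniazid (6.27% and 8.09%) and 2.4 µM simvastatin (0.285% and 0.236%), Mpc2 alone was higher with 4 µM sulfasalazine (0.677% and 0.147%), and Pdk1 alone was lower with 2 µM doxorubicin (1.87% and 2.68%).

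Within the 11 treatments that raised Pdk4, Mpc2 was higher in 10 and Pdp2 in 9, where 0.51% and 1.11% of all genes were higher in at least as many. Pdk1 was higher in 5, where 11.8% of genes were higher in at least as many, while Pdk3 was lower in 6 and Mpc1 in 5, where 8.18% and 12.3% of genes were lower in at least as many. Only diclofenac raised Pdk4 without a call for Mpc2. Across the 30 groups of a batch, the mean log2(CPM + 1) of Pdk4 had a Pearson r of 0.89 and 0.82 with Mpc2, 0.61 and 0.57 with Pdp2, -0.59 and -0.52 with Mpc1 and -0.48 and -0.50 with Pdk3. These r are descriptions, since the groups share rats, plates and library scaling. Of all genes tested, those most like Pdk4 by the lower r of the batches included Slc22a5, the carnitine transporter (0.95 and 0.93), Tmem56 (0.95 and 0.92), the acyl-CoA thioesterase Acot7 (0.93 and 0.92) and the triglyceride lipase Pnpla2 (0.93 and 0.92). A further one, AABR07072203.1, has a contig identifier for a name (0.95 and 0.96). By Spearman rank the likeness was looser, with lower values of the batches from 0.72 for Pnpla2 to 0.79 for Slc22a5. Mpc2 stood at rank 31 and Pdp2 at rank 285.

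The concentrations of each chemical were also compared directly, on the same plate and without the vehicle wells. In both batches, 46 of the pairs of 8 members and 14 chemicals were called, higher or lower. Of all pairs of a gene and a chemical, 11.3% were higher and 11.7% lower at the high concentration. For the counts by member that follow, the share of genes with as many calls is not given. Pdk4 was higher at the high concentration of 7 chemicals and Pdp2 of 9, and Pdp2 was lower for none. For Pdk4, most low concentrations held too few reads for a decrease to be called. Mpc2 was higher for 6 and lower for 3, which were ketoconazole, ranitidine and valproic acid. Pdk2 was lower for 5 and Mpc1 for 4, and Pdk3 was lower for 4 and higher for valproic acid. Pdk1 was higher for 3 and lower for 3, acetaminophen, doxorubicin and valproic acid. Mpc1 at 450 µM chloramphenicol was below 18 µM by 0.86 and 0.75 on the log2 scale, a change not called against vehicle. For WY14643, 0 members were called between the concentrations, and 0.5% of all genes were higher and 0.667% lower at 200 µM.

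Medium alone differed from vehicle in 0 of 8 members by edgeR in both batches, where 1.05% of all genes were higher and 0.206% lower. At an unadjusted p under 0.05 in both batches, 2 passed with the same sign, Pdk1 and Pdk2. The share of all genes at that looser threshold is not given here, so the 2 cannot be set against it. DESeq2 called 0 members. In batch 2 alone, Pdk1 was higher in medium by an L2FC of 0.48 and Mpc2 by 0.27, with adjusted p of 5.3e-05 and 0.00287.

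The ST assay, with 0.558 to 2.21 M reads per well, held Pdk1, Pdk2 and Mpc2, measured on lysate of the same wells. With 200 µM WY14643, ST gave an L2FC of 2.70 and 3.29 for Mpc2 and 1.21 and 1.32 for Pdk1, both called, where 10% of all pairs of a gene and a treatment were higher and 10.3% lower. Pdk2 was lower with 200 µM WY14643 in ST, from 124 ± 18.4 to 46.0 ± 8.67 CPM in batch 1 and from 160 ± 23.0 to 63.6 ± 5.17 CPM in batch 2 (L2FC -0.89 and -0.83). By WT the Pdk2 level at this treatment was 4.08 and 4.87 CPM against 7.07 and 12.3 CPM in vehicle, but it was called in batch 2 alone. Pdk2 counts were higher in ST than in WT, with a mean of 161 against 60 counts per well. ST also called Pdk2 lower with 300 µM indomethacin, 10000 µM isoniazid and 15 µM ketoconazole, besides acetaminophen, diclofenac and naproxen. For Mpc2 the mean count per well was 78.6 in ST and 2112 in WT, and ST called it in 7 of the 12 treatments in which WT called it higher. The assays shared lysate, so ST is no independent replicate.

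Other parts of the pathway were read from lists of genes with textbook roles in 8 treatments, both concentrations of WY14643 and valproic acid, 10000 µM acetaminophen, 300 µM indomethacin, 2000 µM naproxen and 400 µM diclofenac, in which the median L2FC of all genes lay between -0.02 and 0.04. Of the complex and its lipoylation, 9 of 10 genes had a column and 8 were tested. WY14643 called 5 higher and 1 lower at 8 µM and 5 and 0 at 200 µM, beside 15.7% and 15.1% of all genes higher, with list medians of 0.46 and 0.48. Ppm1k, the phosphatase of the related branched-chain complex, led with an L2FC of 3.42 and 2.91 at 8 µM, from 19.9 ± 3.11 to 163 ± 14.9 CPM in batch 1. Ppm1k was also higher with indomethacin, naproxen, acetaminophen and both concentrations of valproic acid among the treatments examined. Lias, which makes the lipoyl group of the complex, was higher with 200 µM WY14643 (0.75 and 0.79) and fell with 10000 µM acetaminophen (-2.10 and -2.02). Indomethacin called 4 of these 8 genes higher, naproxen 3, diclofenac 1, and valproic acid 1 at 400 µM and 2 at 10000 µM with 1 lower, and acetaminophen 3 higher and 3 lower. Of all genes, 16% were higher with indomethacin, 14.9% with naproxen, 25.2% with diclofenac, 6.63% and 22% with 400 and 10000 µM valproic acid and 30.4% with acetaminophen, which also lowered 30.6%, so the counts with diclofenac, acetaminophen and valproic acid were near or below those shares. The list medians in these 6 treatments lay between -0.03 and 0.41.

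Of 12 genes for the sources and fates of pyruvate, 6 were higher and 2 lower with 8 µM WY14643, 6 and 1 with 200 µM, beside 15.7% and 14.2% of all genes at 8 µM and 15.1% and 13.9% at 200 µM, and the list medians were 0.96 and 0.55. Pklr, the liver pyruvate kinase that makes pyruvate from sugar, was lower in all 8 treatments examined, with 200 µM WY14643 from 13.6 ± 2.30 to 1.05 ± 0.541 CPM in batch 1 and from 10.2 ± 1.87 to 1.18 ± 0.376 CPM in batch 2. Pck1, of gluconeogenesis, was higher in 7 of them, by 4.03 and 4.22 with 200 µM WY14643 and 3.70 and 4.67 with 2000 µM naproxen. Pc, which carboxylates pyruvate, was higher with 400 µM valproic acid from 8.91 ± 2.39 to 25.5 ± 0.477 CPM in batch 1 and from 14.3 ± 2.14 to 39.1 ± 3.75 CPM in batch 2. Ldhb, a lactate dehydrogenase, was higher with 10000 µM valproic acid by 3.72 and 3.60, and Gpt2, an alanine transaminase, was lower with 10000 µM acetaminophen, with an L2FC of -3.71 and -3.62. In the other treatments the list gave 6 higher and 2 lower with 400 µM valproic acid, 3 and 4 at 10000 µM, 3 and 5 with acetaminophen, 5 and 2 with indomethacin, 4 and 4 with naproxen and 2 and 4 with diclofenac, and list medians lay between -0.24 and 0.48. The shares of all genes higher and lower were 6.63% and 4.44% with 400 µM valproic acid, 22% and 21% at 10000 µM, 30.4% and 30.6% with acetaminophen, 16% and 14.3% with indomethacin, 14.9% and 14.3% with naproxen and 25.2% and 24.5% with diclofenac. The counts of higher genes with diclofenac, acetaminophen and 10000 µM valproic acid were thus near or below the shares, and their counts of lower genes not far above them.

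All 11 measured PPAR alpha targets were higher with both concentrations of WY14643, 2000 µM naproxen and 400 µM valproic acid. Of all genes, 15.7% and 15.1% were higher with 8 and 200 µM WY14643, 14.9% with naproxen and 6.63% with 400 µM valproic acid. The list medians were 4.66 at 8 µM and 4.63 at 200 µM WY14643, 3.38 with naproxen and 2.17 with 400 µM valproic acid. At 10000 µM valproic acid 8 were higher and 1 lower, with indomethacin 10 and 0, and with diclofenac 6 and 3 (medians of 1.32, 2.00 and 0.78), beside 22% and 21%, 16% and 14.3%, and 25.2% and 24.5% of all genes. Acot1, an acyl-CoA thioesterase with close paralogs, held 0 or 1 counts in vehicle wells and stood at 821 ± 83.6 and 706 ± 35.4 CPM with 200 µM WY14643. With 10000 µM acetaminophen, where Pdk4 was called at about 1 CPM, 2 of the 11 were higher and 6 lower (median -0.79), beside 30.4% and 30.6% of all genes. Among the lower was the liver hormone Fgf21, which went from 46.6 and 39.7 CPM to 0.527 and 0.229 CPM.

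Of 9 HIF1 targets, 5 were higher with 8 µM WY14643 and 4 with 200 µM, and none was lower, beside 15.7% and 15.1% of all genes higher, with list medians of 0.96 and 0.77. The growth factor gene Vegfa was higher by 1.94 and 2.00 at 8 µM. Counts of higher and lower genes were 7 and 1 with diclofenac, 6 and 0 with indomethacin, 4 and 1 each with naproxen, acetaminophen and 10000 µM valproic acid, and 2 and 0 with 400 µM valproic acid, with medians from 0.14 to 1.17. Against the shares of all genes given for the pyruvate list, 4 of 9 higher with acetaminophen (30.4% of all genes) is not far above its share. Of 6 tested genes regulated by FOXO1, glucocorticoid or insulin, 6 were higher with indomethacin, 5 with naproxen, 4 each with diclofenac, 200 µM WY14643 and 10000 µM valproic acid, 3 with 8 µM WY14643 and 2 each with 400 µM valproic acid and acetaminophen, the last near its share, while 15.7% and 15.1% of all genes were higher with 8 and 200 µM WY14643, 16% with indomethacin, 14.9% with naproxen, 25.2% with diclofenac, and 6.63% and 22% with 400 and 10000 µM valproic acid. Between 0 and 2 were lower in each of these treatments, and list medians ran from -1.30 with acetaminophen to 2.45 with naproxen. G6pc, the last enzyme of glucose release, held 1 to 6 counts in vehicle wells and stood at 30.4 ± 1.72 and 47.2 ± 3.26 CPM with naproxen (SD, n = 3 each).

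Markers of cell types moved with the treatments. The hepatocyte sum stood at 31809 and 34363 CPM with 200 µM WY14643, 20070 and 20128 CPM with 2000 µM naproxen, 19970 and 18010 CPM with 10000 µM caffeine, 20460 and 16289 CPM with 10000 µM valproic acid and 8453 and 7695 CPM with 400 µM diclofenac. With 8 µM WY14643, at 37853 and 38087 CPM, 400 µM valproic acid and 100 µM sulfasalazine it was in or near the vehicle range. Of 3 muscle markers, Myh7 was at 0 in vehicle while Acta1 gave most of a sum of 159 to 287 CPM. That sum was 17.5 to 97.4 CPM in WY14643 wells. The Kupffer cell and leukocyte sum ran from 20.2 to 40.6 CPM in vehicle and from 3.74 to 69.0 CPM in treated wells, that of stellate cells and fibroblasts from 20.2 to 128 and from 2.00 to 160 CPM, and that of cholangiocytes from 4.36 to 74.2 CPM in treated wells. Endothelial genes gave 0 to 6.32 CPM in treated wells. The part of these changes in the members' values was not tested, and in bulk lysate fewer cells of a type and less RNA per cell cannot be told apart.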

How the data were processed

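Per the labels and the study's methods, lysates of the same wells were run with the WT and the ST probe sets of TempO-Seq. The deposited values are raw counts of reads per probe and well, aligned by the authors with STAR 2.5.3a (the submitters' processing notes, which also name the genome build rn6). Nothing was normalized before deposit. The tables held 22253 WT and 2654 ST probes, which were added to 20946 and 2604 gene symbols. Each assay had 90 wells in batch 1 and 96 in batch 2, all assigned to a group by the labels, and 0 wells were identical.

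Tests covered the 10191 WT and 1760 ST genes whose counts averaged 10 or more over the wells of the assay. In each batch, edgeR 4.0.16 (R 4.3.3) was fitted with TMM factors and quasi-likelihood over all groups, each treatment was set against all vehicle wells of the batch, and p-values were adjusted by Benjamini-Hochberg over all genes tested. All tests were two-sided. A call needed an adjusted p under 0.05 in both batches with one sign. Ratios of Pdk4 counts have exact 95% intervals from the conditional binomial, scaled by reads, which cover counting error only. The self-test on simulated counts of batch 1 (10191 genes) recovered 39 of 50 genes raised and 31 of 50 lowered by 1 on the log2 scale, and 50 and 49 of 50 at 2.

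The members and lists were chosen with earlier results of these data known. For each member the vehicle level and up to 5 called treatments with the largest mean absolute L2FC were named, besides further called treatments in brief. For Pdk4 both concentrations of WY14643 and valproic acid were always given. Up to 2 genes per list and treatment were eligible by the same measure, and the 5 genes most like Pdk4 were named by the lower Pearson r of the batches. The numbers of treatments given for Ppm1k, Pklr and Pck1 were added after their values were seen. Alternatives were RLE factors, no filter, DESeq2 1.42.0, an absolute L2FC of at least 1, vehicle wells of the same plate, a fit of each treatment with vehicle alone, both batches in one fit, thinning of batch 2, leaving out wells, the ST assay and, added after the data were seen, library totals. Fits by single probe would repeat the fits by gene, as each member had 1 probe. Promoter windows came from RefSeq (GRCr8) and were used for letters only.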

Additional observations from a re-analysis of the deposited data

Results flagged for a closer look

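In vehicle, the highest of the 6 Pdk2 wells of batch 2 in the WT assay stood at 15.7 CPM, apart from the next at 12.3 CPM. Likewise the highest ST vehicle well for Mpc2 in batch 2 stood at 54.9 CPM, with the next at 32.7 CPM. These were 2 of 22 groups of 6 wells examined for a well apart from the rest, where a share of 0.05 is the rate that chance alone gives.

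For 9 of 232 pairs of a member and a treatment or medium, the response differed between the batches by the interaction test of edgeR, while 2.36% of all such pairs of genes were called. The value given is the L2FC of batch 2 minus that of batch 1. For Pdk1 it was -0.72 with 2 µM doxorubicin, -0.68 with 0.08 µM doxorubicin, -0.72 with 10000 µM valproic acid, -0.67 with 400 µM diclofenac and 0.55 with 10000 µM acetaminophen. For Mpc2 it was -0.67 with 400 µM diclofenac and -0.59 with 80 µM naproxen. For Pdp2 it was 0.52 with 10000 µM acetaminophen and 0.62 with 15 µM ketoconazole. Vehicle levels of Pdk1 and Pdp2 also differed between the batches, at 94.1 and 140 CPM for Pdk1 and 42.6 and 27.6 CPM for Pdp2, and their part in these differences was not tested.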

How the results depend on the processing

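No paired analysis was possible by replicate number, because the labels give well positions and no replicate numbers. The numbers used here follow accession order. The fit of both batches together, with batch as a term, compared treatment with vehicle within each rat. Pairing of single wells by their plate position was not tested. The count of pairs called higher in both batches (46) fell to 30 and that of pairs called lower (18) to 7 when an absolute L2FC of at least 1 was also required, which leaves out smaller changes by its construction. With both batches in one fit, which asks for 1 call in place of 2, the lower count rose to 40 and the higher to 58, and all 64 pairs stayed called. Leaving out wells gave 38 to 46 higher and 10 to 19 lower pairs. The lower count was 10 without replicate 2 of every group and 11 without vehicle replicate 1 of batch 1. The 11 Pdk4 treatments became 9 to 11 when wells were left out and 10 to 12 in the other fits. Pairs called between concentrations (46) ran from 31 to 42 when wells were left out and from 43 to 47 otherwise. The count of 0 for medium stayed at 0. That for Pdk4 lower did too, but a decrease of Pdk4 against vehicle was not detectable in any of these fits. Library totals, chosen after seeing the data, moved the median of all genes by between -0.48 (10000 µM acetaminophen, batch 1) and 0.32 (10000 µM valproic acid, batch 2) against vehicle, and gave 44 higher and 23 lower pairs. Of 792 alternatives for 37 named fold changes, 734 kept call and direction, 58 lost the call and 0 reversed. The cause of these losses was not tested. By Spearman rank, 3 of the 5 genes most like Pdk4 were the same.

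Vehicle levels of Pdk4 rest on 3 and 7 reads over the wells of the batches, so its ratios carry wide counting intervals and a decrease was not detectable at this depth. Pdk2, Pdk3 and Pdp1 had means of 60, 42.3 and 39.8 counts per WT well. The batches are 2 rats, plates hold different chemicals, and the wells of a treatment share their rat.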
